A study of Homo sapiens with 16 samples.

Results

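The genes of arginine uptake, synthesis and use were followed in LP-1 cells with and without cIAP2 overexpression. The starting point was ASS1, whose brighter probe was well above background in only 1 of the lines. The 10 genes were taken by name, through the RefSeq accession that the scanner files give for each probe: ASS1, ASL, ARG2, SLC7A1, SLC7A2, ODC1, OAZ1, SAT1, SRM and SMS. They have 14 probes among the 50599 gene probes of the array, which name 20503 genes. Of these, 9 genes with 13 probes passed the filter on low signal and were tested, among 33731 probes tested in all, and SLC7A2 did not pass. ASS1 was chosen by its measured signal, which differed between the lines, and the other 9 by name, so the ASS1 difference is described without a test and is left out of every count between the lines, which leaves 8 genes.

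LP-1, a cell line from a human multiple myeloma, has lost TRAF3 function: TRAF3, a brake on NF-κB signalling, is deleted or mutated in it. The lines had been transduced with lentivirus and sorted for eGFP: LP-1-cIAP2-eGFP carries pIRES2-cIAP2-eGFP and overexpresses cIAP2, an inhibitor of apoptosis protein, and the control, LP-1-eGFP, carries pIRES2-eGFP. Each line was left untreated or was treated with 10 nM of the proteasome inhibitor bortezomib for 6 h or 24 h, which gives 8 conditions with 2 biological replicates each and 16 single-colour arrays. Each line is a single transduced population, so the effect of cIAP2 and any other difference between the populations cannot be told apart. All values are quantile-normalized log2 signals, on which 1 unit is a 2-fold difference, and a call is an adjusted p under 0.05 from limma (Benjamini-Hochberg over all probes tested).

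Some libraries stood apart or bore on the labels. The probe for BIRC3, the gene of cIAP2, lies in the untranslated region and reads endogenous transcripts only, according to the methods. Its signal was 13.54 to 13.67 on the 4 untreated LP-1-eGFP arrays and 11.92 to 12.13 on the 4 untreated LP-1-cIAP2-eGFP arrays, so the array does not read the introduced cIAP2. Of the gene spots, 35.5% were well above background on replicate 1 of the bortezomib 24 h condition of LP-1-cIAP2-eGFP, against 49.0% to 71.1% on the other 15 arrays, and the called values of named genes are also given without this dim array where that ends the call or moves the value by more than 1.5 times. The arrays were on 2 slides; slide 1 held 6 arrays of LP-1-cIAP2-eGFP and 2 of LP-1-eGFP, and slide 2 held 2 and 6. Of 8 plasma cell markers, 6 were well above background on all 16 arrays, with XBP1 the most abundant. MS4A1 and PAX5 of B cells, CSF1R and FCGR3A of myeloid cells, and COL1A2 and COL3A1 of fibroblasts were not well above background on any array. Some markers of these other cell types were read at a low level: CD14 of myeloid cells was well above background on 13 arrays, and COL1A1 and DCN of fibroblasts on 10 and 6. Of the T cell markers CD2 was well above background on 15 arrays, CD3D on 12 and CD3E on 10, with median signals of 6.38, 5.57 and 5.23. CD2 reached 11.49 on the dim array. CD3D was well above background on 8 of 8 LP-1-eGFP arrays and 4 of 8 LP-1-cIAP2-eGFP arrays, so no size is given for its difference, and the part of such transcripts in the results was not tested.

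Arginine enters cells through cationic amino acid transporters such as SLC7A1, and cells that express ASS1 and ASL can also make it from citrulline and aspartate. Arginase cleaves arginine to ornithine, which ODC1 turns into putrescine; SRM and SMS then add aminopropyl groups to give spermidine and spermine. SAT1 acetylates both polyamines for export or breakdown, and OAZ1, an antizyme, binds ODC1 and delivers it to the proteasome without ubiquitin, so this pathway is itself tied to the proteasome that bortezomib inhibits.

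The promoters of ASS1, SRM and SAT1 are shown because these are the genes with the line difference that started the selection and with the largest fall and rise after bortezomib at 24 h among those called in both lines, by the mean of the lines. Each run is the 250 bases before the gene's start, 5′ to 3′ on the gene's strand, from RefSeq on GRCh38.p14. Capitals mark the GC box, GGGCGG or its reverse complement, and the E-box CACGTG, the sequence that MYC and its relatives bind; the search covered both strands and the motifs do not overlap here. The windows are chr9:130444457-130444706 on the plus strand for ASS1, chr1:11060019-11060268 on the minus strand for SRM and chrX:23782923-23783172 on the plus strand for SAT1.
ASS1: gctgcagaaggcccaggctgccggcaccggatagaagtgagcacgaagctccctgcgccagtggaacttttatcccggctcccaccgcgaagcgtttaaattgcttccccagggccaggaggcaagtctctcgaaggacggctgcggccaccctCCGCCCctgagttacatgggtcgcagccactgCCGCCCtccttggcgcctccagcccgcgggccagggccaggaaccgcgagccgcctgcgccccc
SRM: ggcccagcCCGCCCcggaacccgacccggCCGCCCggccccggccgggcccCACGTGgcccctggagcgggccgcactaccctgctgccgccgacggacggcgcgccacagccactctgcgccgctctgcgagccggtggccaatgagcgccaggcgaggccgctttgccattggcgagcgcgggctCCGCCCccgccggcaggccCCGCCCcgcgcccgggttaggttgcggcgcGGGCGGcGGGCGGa
SAT1: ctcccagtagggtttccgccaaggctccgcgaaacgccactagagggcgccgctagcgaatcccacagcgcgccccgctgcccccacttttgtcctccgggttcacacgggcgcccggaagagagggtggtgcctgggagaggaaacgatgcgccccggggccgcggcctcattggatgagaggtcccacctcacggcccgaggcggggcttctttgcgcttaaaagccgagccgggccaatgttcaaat
SRM held the E-box once, starting 199 bases before the gene's start, and none of the other 8 genes with a promoter in the RefSeq table had it, where 6.49% of 27305 promoters of this length do. The GC box was in 8 of the 9 promoters and in 42.31% of all promoters; ASS1 had 2 matches, SRM 6 and SAT1 none. TGATGNAA, read by C/EBP and ATF proteins in amino acid shortage, was in 0 of the 9 and in 3.19% of all, and the NF-κB motif was in ASL alone, against 6.6% of all. These matches describe letters in a window and do not show binding.

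ASS1, argininosuccinate synthase, catalyses the rate-limiting step that joins citrulline and aspartate. On its brighter probe, the untreated LP-1-eGFP arrays read 10.74 and 10.57 at 6 h and 11.09 and 10.45 at 24 h. The untreated LP-1-cIAP2-eGFP arrays read 2.76 and 2.68 at 6 h and 3.98 and 4.42 at 24 h. The lines were thus far apart at each time without drug, and the same was seen with it. With bortezomib, LP-1-eGFP read 11.39 and 11.10 at 6 h and 11.85 and 12.07 at 24 h. LP-1-cIAP2-eGFP with bortezomib read 2.65 and 3.78 at 6 h and 4.50 and 4.43 at 24 h. All 8 LP-1-eGFP arrays were well above background and none of the 8 LP-1-cIAP2-eGFP arrays was. Each undetected array was given the dimmest signal that counted as well above background on it, or the probe's own signal where that was higher. Against this floor the control signal of ASS1 was 65.3-fold higher without bortezomib and at least 68.7-fold higher with it. Over the single conditions the value ran from 45.0-fold in untreated cells at 6 h to 94.8-fold in untreated cells at 24 h. In untreated cells at 24 h both undetected signals lay above the dimmest detected ones, 3.50 and 4.28. The 94.8-fold is thus a ratio to their measured signal, which also enters the 65.3-fold, and not a lower bound. The second ASS1 probe gave at least 14.8-fold without bortezomib and 14.6-fold with it, where an undetected signal, 3.97, lay above its floor of 3.89. That probe was well above background on 8 of 8 LP-1-eGFP arrays and 1 of 8 LP-1-cIAP2-eGFP arrays. ASS1 has many processed pseudogene copies, and the share of each probe's signal that comes from them was not tested.

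**Figure D1:**
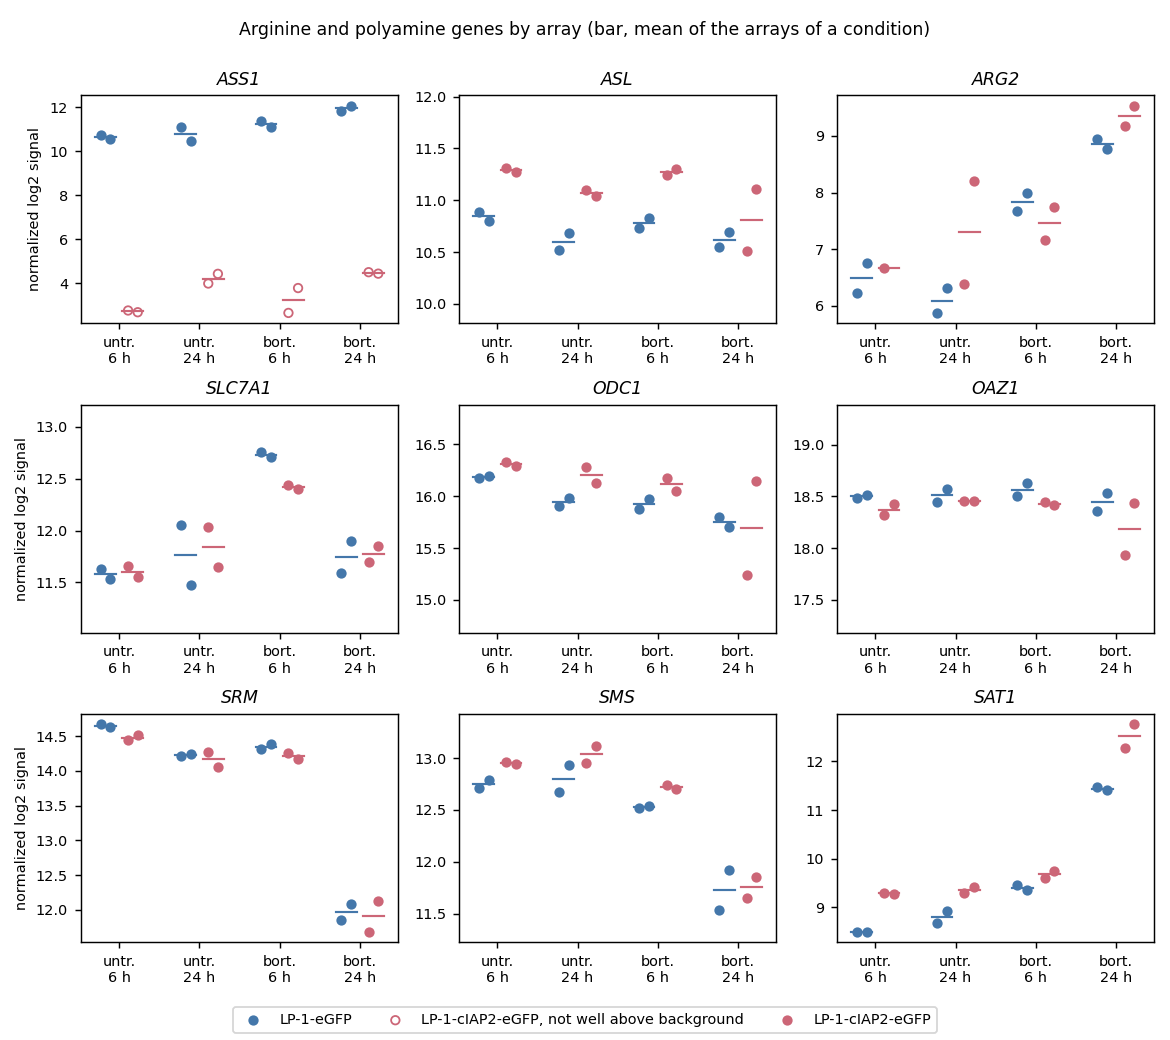
Normalized log2 signal (vertical axis) of the brighter tested probe of 9 genes on each array, by condition (horizontal axis); points are arrays, bars are means of the arrays of a condition, and open points were not well above background. ASS1 sits at 10.45 or above on every LP-1-eGFP array and at 4.50 or below on every LP-1-cIAP2-eGFP array, SAT1 is higher in LP-1-cIAP2-eGFP in each condition, and ARG2 and SAT1 rise while SRM and SMS fall with bortezomib at 24 h.

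Next, it was asked whether the other steps differed between the lines. Averaged over the 4 conditions, 2 of the 8 genes were called, ASL and SAT1, and both were higher in LP-1-cIAP2-eGFP. Over all probes, 16.1% were called in this comparison, 6.26% as higher and 9.84% as lower, so calls were common and 2 of 8 is not set apart from them. The median difference of the 8 genes was 0.15, against -0.02 over all probes tested. By the rule in the study's methods, an adjusted p under 0.001 with more than a 2-fold difference between the untreated lines, 2.37% of probes and 0 of the 8 genes passed. Of the 8 plasma cell markers 4 were called between the lines, with MZB1 (0.50), SDC1 (1.42) and SLAMF7 higher and CD38 (-0.55) lower in LP-1-cIAP2-eGFP. No size is given for SLAMF7, a surface receptor, which was not well above background throughout: it read 3.98 to 6.42 on the LP-1-eGFP arrays, of which 5 of 8 were well above background, and 10.54 to 11.22 on the other 8. The part of these marker differences in the differences between the lines was not tested.

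ASL, argininosuccinate lyase, releases arginine and fumarate from the product of ASS1. In untreated cells it read 10.89 and 10.80 at 6 h and 10.52 and 10.69 at 24 h in LP-1-eGFP, and 11.32 and 11.27 at 6 h and 11.10 and 11.04 at 24 h in LP-1-cIAP2-eGFP. With bortezomib it read 10.73, 10.83, 10.55 and 10.69 in LP-1-eGFP and 11.25, 11.30, 10.51 and 11.11 in LP-1-cIAP2-eGFP, in the same order. The lines did not overlap in 3 of the 4 conditions, and at 24 h with bortezomib the dim array, at 10.51, lay below the LP-1-eGFP arrays. ASL was therefore higher in the line in which the brighter ASS1 probe was not well above background. The difference was 0.40 on the log2 scale (SE 0.09, limma adjusted p = 0.0155). Within slides the difference was 0.51 and 0.39 in untreated cells at 6 h, 0.44 in untreated cells at 24 h and 0.26 with bortezomib at 24 h. The ASL call was lost with the slide as a block (0.42, adjusted p = 0.0710) and with another background correction (0.21, adjusted p = 0.611).

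SAT1, spermidine/spermine N1-acetyltransferase, is the rate-limiting enzyme of polyamine catabolism. Its untreated values were 8.50 and 8.50 at 6 h and 8.68 and 8.93 at 24 h in LP-1-eGFP, and 9.30 and 9.28 at 6 h and 9.30 and 9.42 at 24 h in LP-1-cIAP2-eGFP. After 6 h of bortezomib it read 9.45 and 9.36 in LP-1-eGFP and 9.60 and 9.75 in LP-1-cIAP2-eGFP. At 24 h with bortezomib it read 11.47 and 11.40 in LP-1-eGFP and 12.27 and 12.76 in LP-1-cIAP2-eGFP. The lines were apart in all 4 conditions, as were those of 12.4% of probes measured on all arrays, and SAT1 was the only one of the 7 genes measured on all arrays, other than ASS1, for which this held. The mean difference was 0.67 (SE 0.09, limma adjusted p = 0.000549), which is 1.60-fold, and the other SAT1 probe gave the same 0.67. It was 0.67 in untreated cells (adjusted p = 0.00845) and 0.67 with bortezomib (adjusted p = 0.00755). In these comparisons SAT1 was the only call among the 8 genes, where 7.75% and 9.36% of all probes were called. Within slides the SAT1 difference was 0.80 and 0.78 in untreated cells at 6 h, 0.61 in untreated cells at 24 h and 1.04 with bortezomib at 24 h. With the slide as a block the bortezomib difference was 0.68 with adjusted p = 0.0620, and without the dim array ASL and ODC1 were called beside SAT1 in bortezomib-treated cells, and ASL in untreated cells.

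The other 6 genes were not called between the lines, and for all of them but ARG2 the 95% interval of the difference stayed within 0.40 of 0. SLC7A1, the main arginine importer of most cells, differed by -0.04 (95% interval -0.28 to 0.19, limma adjusted p = 0.823). For the polyamine synthases the interval was -0.30 to 0.08 for SRM and -0.02 to 0.35 for SMS. For ODC1, ornithine decarboxylase, it was -0.14 to 0.40, and for OAZ1 it was -0.33 to 0.05. The dim array bore on both: without it ODC1 was called higher (0.24, adjusted p = 0.0118), and with it alone in its condition OAZ1 was called lower (-0.21, adjusted p = 0.0198) in a fit that called 12301 of 33704 probes. ARG2, the mitochondrial arginase, had the widest interval, -0.25 to 1.00, and a difference of 0.37. Its untreated LP-1-cIAP2-eGFP arrays at 24 h read 6.39 and 8.21, its 6 h value came from 1 array because the spot of replicate 2 was marked as an outlier, and it is fitted there on 15 arrays. Without replicate 1 of these 24 h arrays ARG2 was called higher in untreated LP-1-cIAP2-eGFP cells (1.15, adjusted p = 0.0454), and without replicate 2 the value was 0.24 (adjusted p = 0.833). Over the arrays left out in turn its mean difference ran from 0.15 to 0.60.

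**Figure D2:**
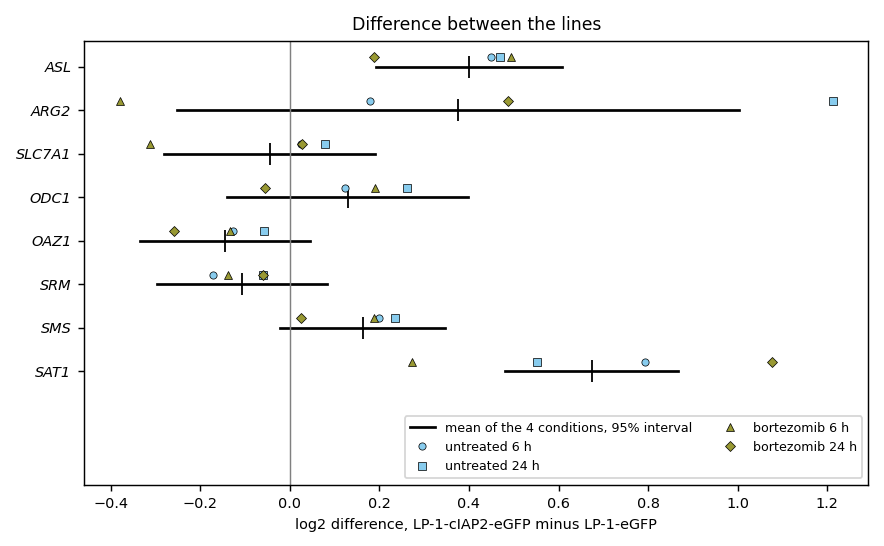
Difference in log2 signal, LP-1-cIAP2-eGFP minus LP-1-eGFP (horizontal axis), for the 8 genes other than ASS1 and SLC7A2; black ticks and lines are the mean of the 4 conditions with its 95% interval, and symbols are single conditions. The intervals of ASL and SAT1 lie above 0 and those of the other 6 genes include 0.

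SLC7A2, the other arginine transporter on the list, was well above background on 2 arrays, both of LP-1-eGFP. It reached 7.15 on replicate 1 with bortezomib for 24 h and 4.07 on untreated replicate 2 at 6 h, while the remaining 6 LP-1-eGFP arrays read 2.50 to 3.09. The LP-1-cIAP2-eGFP arrays read 2.51 to 3.40. No difference can be read from a probe this close to background.

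Then the response to bortezomib was examined in each line. After 6 h, 2 of 9 genes were called in LP-1-eGFP, SLC7A1 and SAT1, both upwards, where 1.95% of all probes were called and 1.26% upwards. SLC7A1 rose from 11.63 and 11.53 to 12.75 and 12.71, by 1.15 (SE 0.21, limma adjusted p = 0.0268) or 2.22-fold. SAT1 rose by 0.90 (adjusted p = 0.0318) or 1.87-fold. In both genes the treated arrays lay above the untreated ones with no overlap. In LP-1-cIAP2-eGFP none of 8 genes was called by limma, 1 had an unadjusted p under 0.05, and 1.09% of all probes were called. That gene was SLC7A1, at 11.66 and 11.55 untreated and 12.44 and 12.40 treated, a difference of 0.82 (95% interval 0.34 to 1.29, adjusted p = 0.128). The SLC7A1 responses of the lines differed by -0.34 (SE 0.30, adjusted p = 1), so a difference between the lines was not shown; 0.00297% of all probes were called in that comparison. Within slides the 6 h SLC7A1 difference was 1.10 in the control and 0.76 in LP-1-cIAP2-eGFP. The 6 h call held under 16 of 26 alternatives for SLC7A1 and 9 of 26 for SAT1; those under which both were lost include the slide as a block (adjusted p = 0.0722 for SLC7A1 and 0.0890 for SAT1) and leaving out any of the 4 LP-1-eGFP arrays of 6 h (adjusted p = 0.163 to 0.209 for SLC7A1 and 0.174 to 0.252 for SAT1).

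After 24 h the SLC7A1 signal was back near that of untreated cells. It read 11.59 and 11.90 with bortezomib against 12.06 and 11.47 without it in LP-1-eGFP, and 11.70 and 11.85 against 12.04 and 11.65 in LP-1-cIAP2-eGFP. The difference was -0.02 (95% interval -0.49 to 0.45) and -0.07 (95% interval -0.54 to 0.40), and the groups overlapped in both lines.

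At 24 h, 5 of 9 genes were called in LP-1-eGFP, with ASS1, ARG2 and SAT1 up and SRM and SMS down. In LP-1-cIAP2-eGFP 4 of 8 were called, with ARG2 and SAT1 up and SRM and SMS down. Over all probes 21% were called in the control, 9.81% up and 11.2% down, and 28.6% in LP-1-cIAP2-eGFP, 11.1% up and 17.5% down, so the 24 h response was broad. Without the dim array the LP-1-cIAP2-eGFP count was again 4. The plasma cell markers moved too: 6 of 8 fell and SLAMF7 rose in LP-1-eGFP. In LP-1-cIAP2-eGFP 7 of 8 fell, with or without the dim array. The linear signals of the 8 markers were also summed, a sum in which XBP1 weighs most. The log2 of this sum was 18.15 to 18.50 on the untreated arrays and 16.75 to 16.94 at 24 h with bortezomib. Fewer cells with a transcript and less of it per cell cannot be told apart in these bulk samples, and the part of cell state in the gene differences was not tested.

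SAT1 had the largest rise of the 8 genes tested in LP-1-cIAP2-eGFP and, after ARG2, of the 9 in the control. It rose by 2.63 in LP-1-eGFP (SE 0.17, limma adjusted p = 1.91e-05), which is 6.19-fold, and by 3.15 in LP-1-cIAP2-eGFP (SE 0.17, adjusted p = 5.5e-06), which is 8.90-fold. Its lowest treated array in either line, 11.40, lay well above its highest untreated array, 9.42. Its other probe rose by 2.82 and 3.27. Within slides the rise was 2.60 in the control and 3.21 in LP-1-cIAP2-eGFP.

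ARG2 rose in both lines. It read 5.87 and 6.30 untreated and 8.95 and 8.78 with bortezomib in LP-1-eGFP, a rise of 2.78 (SE 0.52, limma adjusted p = 0.00523) or 6.86-fold. In LP-1-cIAP2-eGFP it read 6.39 and 8.21 untreated and 9.17 and 9.54 treated, a rise of 2.05 (adjusted p = 0.0181) or 4.15-fold. The groups did not overlap in either line, but the untreated LP-1-cIAP2-eGFP arrays were far apart, and without replicate 1 of them the rise was 1.14 with adjusted p = 0.0683. The call was also lost with the authors' normalized values (adjusted p = 0.0836) and with array weights (adjusted p = 0.406), which came out equal for both arrays of each condition and so reflect the spread within a condition, not the quality of an array.

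SRM, spermidine synthase, fell by the same amount in both lines. It went from 14.21 and 14.25 to 11.85 and 12.09 in LP-1-eGFP and from 14.28 and 14.06 to 11.68 and 12.13 in LP-1-cIAP2-eGFP. The change was -2.26 in LP-1-eGFP (SE 0.17, limma adjusted p = 3.27e-05) and -2.26 in LP-1-cIAP2-eGFP (adjusted p = 2.04e-05), a 4.80-fold lower signal in each. The responses of the lines differed by 0.00 (95% interval -0.54 to 0.54). SRM is the gene whose promoter, printed above, held the E-box, and a part of that motif in the fall was not tested.

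SMS, spermine synthase, fell less. Its change was -1.08 in LP-1-eGFP (SE 0.16, limma adjusted p = 0.00131) and -1.29 in LP-1-cIAP2-eGFP (adjusted p = 0.000373), from 12.67 and 12.93 to 11.53 and 11.92 and from 12.96 and 13.12 to 11.65 and 11.85. Treated and untreated arrays did not overlap in either line. The other 2 SMS probes gave -1.35 and -1.21 in LP-1-eGFP; on both, the dim array was not well above background, so no size is given for them in LP-1-cIAP2-eGFP.

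ODC1, OAZ1 and ASL were not called at 24 h in either line. ODC1 read 15.90 and 15.99 untreated and 15.80 and 15.70 with bortezomib in LP-1-eGFP, a difference of -0.20 (95% interval -0.74 to 0.34). In LP-1-cIAP2-eGFP it read 16.28 and 16.13 untreated and 15.24 and 16.15 treated, and the low value was that of the dim array (-0.51, 95% interval -1.05 to 0.03). OAZ1 differed by -0.06 and -0.27, and ASL by 0.02 and -0.26, and again the dim array was the lowest of its line for OAZ1, at 17.94, and ASL, at 10.51. With the dim array standing alone for its condition, ASL, ODC1 and OAZ1 were called lower at 24 h in LP-1-cIAP2-eGFP, which made 7 of 8 genes, but 17764 of 33719 probes were called in that fit, against 9631 with all arrays. Without it the difference was -0.06 for ODC1, -0.02 for OAZ1 and 0.04 for ASL.

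ASS1 could be followed with bortezomib in LP-1-eGFP only. The mean signal there was 10.66 in untreated cells at 6 h (SD 0.12, n = 2), 10.77 in untreated cells at 24 h (SD 0.46, n = 2), 11.25 with bortezomib for 6 h (SD 0.20, n = 2) and 11.96 with bortezomib for 24 h (SD 0.16, n = 2). The arrays of the untreated conditions overlapped, the 24 h untreated and 6 h bortezomib arrays were barely apart (11.09 against 11.10), and the bortezomib conditions did not overlap. The 6 h difference of 0.59 was not called (limma adjusted p = 0.637). The 24 h rise was 1.19 (SE 0.34, limma adjusted p = 0.0351) or 2.28-fold, and the treated arrays lay above the untreated ones. The second probe read 9.12 and 8.49 untreated at 24 h and 9.71 and 9.55 treated. The call held under 12 of 25 alternatives, with adjusted p from 0.00178 to 0.219; without replicate 2 of the untreated 24 h arrays the rise was 0.87.

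**Figure D3:**
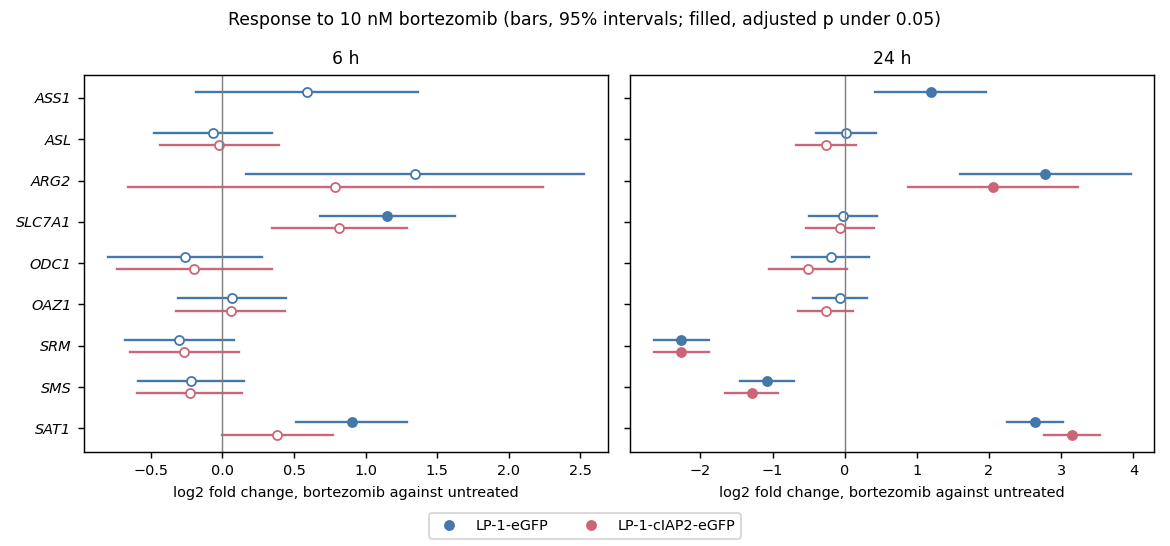
Log2 fold change with 10 nM bortezomib against untreated cells of the same line and time (horizontal axis) for 9 genes at 6 h and at 24 h; bars are 95% intervals and filled points have an adjusted p under 0.05. ASS1 is drawn for LP-1-eGFP only. SLC7A1 is displaced at 6 h and sits at -0.02 and -0.07 at 24 h, where SRM sits at -2.26 in both lines.

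The lines were also compared for the size of their 24 h response. None of the 8 genes was called by limma, none had an unadjusted p under 0.05, and 0.0712% of all probes were called. The SAT1 responses differed by 0.52 (95% interval -0.02 to 1.07) and the ARG2 responses by -0.72 (95% interval -2.40 to 0.95). Over the arrays left out in turn the SAT1 value ran from 0.28, with the dim array alone in its condition, to 0.77 without it. The ARG2 value ran from -1.64 without replicate 1 of the LP-1-cIAP2-eGFP arrays left untreated for 24 h to 0.19 without replicate 2 of them, so its sign turned. With the dim array standing alone, ASL and ODC1 were called (-0.58, adjusted p = 0.0321, and -0.77, adjusted p = 0.00864), in a fit that called 9338 of 33719 probes, against 24 with all arrays. Between 24 h and 6 h in untreated cells none of the 8 was called by limma, 1 had an unadjusted p under 0.05 (SRM, -0.36, adjusted p = 0.831), and 0.0089% of all probes were called.

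The wider arginine pathway was read from 9 lists with 56 further genes, of which 50 were tested. Between the lines 8 were called higher and 9 lower, beside the 16.1% of all probes called, and their median difference was 0.01. Of the 16 polyamine genes tested, 5 were higher and 3 lower. SMOX, spermine oxidase, showed the largest difference on these lists. It read 11.14 and 11.12 at 6 h and 11.34 and 11.31 at 24 h in untreated LP-1-eGFP, and 9.45 and 9.49 at 6 h and 9.80 and 9.73 at 24 h in untreated LP-1-cIAP2-eGFP. The difference of SMOX, as a mean of the 4 conditions, was -1.56 (limma adjusted p = 3.52e-06), and the lines did not overlap in untreated cells. Of the enzymes that act on spermine, SAT1 was thus higher and SMOX lower in LP-1-cIAP2-eGFP. Among the other polyamine genes the exporter of lysosomal polyamines ATP13A2 was lower (-0.76). SLC18B1, a vesicular polyamine transporter, was higher (0.79), as were ATP13A3 (0.69), a polyamine importer, and AZIN2, an antizyme inhibitor (0.50).

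Of the 5 tested genes of the urea cycle and mitochondrial ornithine transport, 1 was called between the lines, CPS1, which makes carbamoyl phosphate. It read 8.95 to 9.15 on the untreated LP-1-eGFP arrays and 7.80 to 8.15 on the untreated LP-1-cIAP2-eGFP arrays, a mean difference of -1.21 over the 4 conditions (limma adjusted p = 6.6e-05), or -1.13 without the dim array, where CPS1 was not well above background. Of 6 genes around aspartate and fumarate 1 was lower, FH. None of the 4 other cationic amino acid transporters tested was called by limma. ALDH18A1, which makes the precursor of proline and ornithine from glutamate, was higher (0.68), and ALDH4A1, of proline breakdown, was lower (-0.51). CASTOR1, a cytosolic arginine sensor of the mTORC1 pathway, was higher (0.66), and GAMT, which completes creatine synthesis, was lower (-0.46).

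With bortezomib for 24 h, 11 of the 50 rose and 12 fell in LP-1-eGFP, and 11 rose and 17 fell in LP-1-cIAP2-eGFP, where 21% and 28.6% of all probes were called. Of these, 8 rose and 12 fell in both lines and 0 were called in opposite directions; no response difference was called by limma among the 50, and 4 had an unadjusted p under 0.05. Without the dim array, a comparison added after seeing the data, 12 rose and 16 fell in LP-1-cIAP2-eGFP, and 24 of its calls were shared with those of all arrays. Of the calls made with all arrays 4 were lost, those of FH, NOSIP, OAT and PYCR1, and 4 were gained, those of ATP13A2 and SLC38A9 upwards and CASTOR1 and GOT2 downwards. In the ornithine and proline list ALDH18A1, PYCR1 and PYCR3 were among the genes that fell in both lines, though PYCR1 in LP-1-cIAP2-eGFP was at -0.45 without the dim array (limma adjusted p = 0.0674). PYCR3 went from 11.63 and 11.87 to 9.48 and 9.89 in LP-1-eGFP (-2.07, limma adjusted p = 4.71e-05) and from 11.59 and 11.35 to 9.96 and 9.78 in LP-1-cIAP2-eGFP (-1.60). SLC25A15, the mitochondrial ornithine carrier, changed by -1.99 in the control and -2.46 in LP-1-cIAP2-eGFP. Both enzymes of creatine synthesis fell: GATM, which uses arginine directly, changed by -1.77 and -1.59, and GAMT by -1.22 and -1.51, in that order. DDAH1, which clears dimethylarginine, changed by -1.69 in the control and, without the dim array, which was not well above background for DDAH1, by -1.46 in LP-1-cIAP2-eGFP.

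In the polyamine list AMD1, which supplies the aminopropyl donor to SRM and SMS, fell with them. It read 13.53 and 13.61 untreated and 12.16 and 12.19 treated in LP-1-eGFP (-1.39, limma adjusted p = 0.000131), and 13.93 and 13.85 untreated and 12.89 and 12.58 treated in LP-1-cIAP2-eGFP (-1.16). SMOX rose by 0.78 and 1.53 and SAT2, a relative of SAT1, by 1.25 and 1.15. PAOX, which oxidizes acetylated polyamines, was at 0.45 in the control (limma adjusted p = 0.0868) and rose in LP-1-cIAP2-eGFP, by 1.08 (adjusted p = 0.00106). Its other probes differed from this in LP-1-cIAP2-eGFP. A dimmer one read 8.45 and 8.59 untreated and 9.04 and 8.98 treated. The dimmest read 6.43 and 6.08 untreated and 5.30, on the dim array, and 6.65 treated. OAZ3, an antizyme known from testis, rose from 7.66 and 8.04 to 9.62 and 9.76 in LP-1-eGFP (1.85) and from 7.73 and 8.29 to 9.83 and 9.93 in LP-1-cIAP2-eGFP (1.87).

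SLC7A7, the light chain of an exchanger that moves arginine across the membrane with SLC3A2, had the largest rise on the lists by the mean of the lines. It read 7.57 and 7.70 untreated and 9.32 and 9.43 treated in LP-1-eGFP, and 7.47 and 6.89 untreated and 9.96 and 9.87 treated in LP-1-cIAP2-eGFP. The rise was 1.74 (limma adjusted p = 0.000349) and 2.73 (adjusted p = 2.3e-05), and the responses did not differ by the test (0.99, adjusted p = 0.448). SLC3A2 was at 1.06 in the control (adjusted p = 0.0680), and its rise of 1.56 in LP-1-cIAP2-eGFP passed (adjusted p = 0.0102). SLC7A6, the light chain of a related exchanger, was at -1.31 in the control (limma adjusted p = 0.125) and fell in LP-1-cIAP2-eGFP; the dim array was not well above background for it, and without that array the change was -1.59 (adjusted p = 7.86e-05). ATE1, which attaches arginine to proteins marked for degradation, rose by 0.83 and 1.10. After 6 h, 3 of the 50 were called up (GOT1, RARS2 and SMOX) and PYCR3 down in LP-1-eGFP, where 1.95% of all probes were called and 1.26% upwards. None was called by limma in LP-1-cIAP2-eGFP, where 6 had an unadjusted p under 0.05 and 1.09% of all probes were called.

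**Figure D4:**
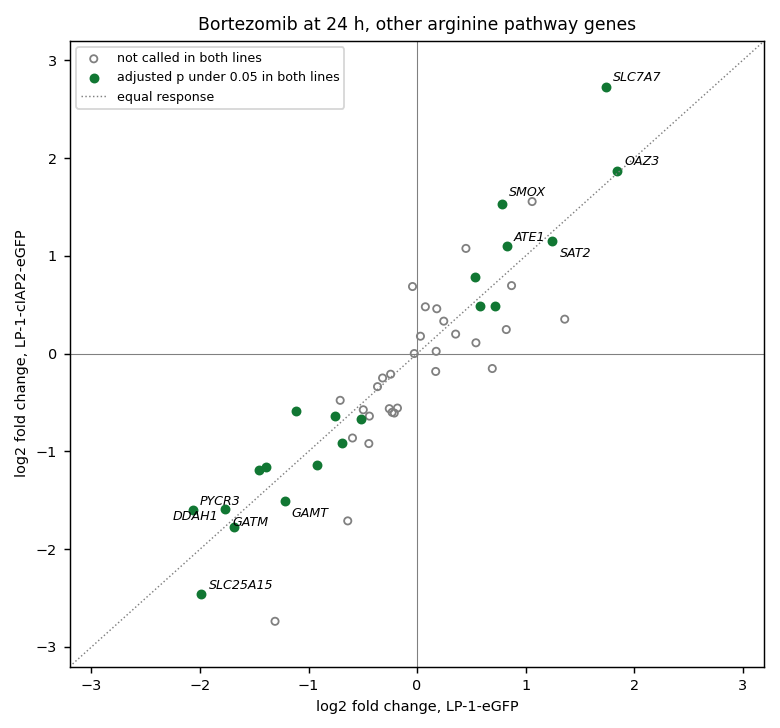
Log2 fold change with bortezomib at 24 h in LP-1-eGFP (horizontal axis) and LP-1-cIAP2-eGFP (vertical axis) for the 50 further genes of the arginine pathway; filled points were called in both lines, the dotted line marks equal responses, and the largest called changes are named. Filled points lie in the lower left (12 genes) and upper right (8 genes) only.

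The genes whose signal was most like that of ASS1 were also listed, as a description. Over the 16 arrays and 15490 genes the highest Pearson correlations were those of ARHGAP27 (0.989), SDSL (0.988), CTSF (0.983), PLEKHO1 (0.982) and ALAS1 (0.979); these arrays fall into 2 clusters, the lines, which all these values share. Within the 8 LP-1-eGFP arrays and 15943 genes, where the values follow treatment and time instead, high values were those of UGT2B11 (0.985), ACAD11 (0.985) and NPAS1 (0.982). None of the genes named over 16 arrays was named over 8.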

How the data were processed

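Total RNA from 16 cultures was labelled with Cy3 and hybridized to Agilent SurePrint G3 Human 8x60K arrays. The deposited scanner files hold intensity values made by the authors with Agilent Feature Extraction 10.7.3.1, background-subtracted and detrended but not normalized between arrays. The authors' deposited log2 table, quantile normalized in GeneSpring with each probe centred on its median, served as an alternative.

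Unflagged spots of a probe were averaged, log2 transformed and quantile normalized (limma 3.58.1, R 4.3.3). A probe entered the test if both arrays of any condition had it well above background; the test was run with lmFit and eBayes on the 8 condition means, with Benjamini-Hochberg adjustment over all probes; the fit was tested on simulated data. Each gene is given by its brightest tested probe, other pathway genes by name where called between the lines or in both lines at 24 h, up to 5 per direction; AMD1, SLC3A2, SLC7A6, PAOX, FH, NOSIP, OAT, PYCR1, GOT1, GOT2, SLC38A9, RARS2 and the markers MZB1, SDC1, SLAMF7, CD38 and CD3D were named after their values were seen. Of the probes, 55.7% were named through their RefSeq accession. Members and lists were chosen with earlier results of these data known. Intervals are unadjusted. Alternatives covered scaling, background correction, filters, slide and replicate blocks, array weights, probe averaging, call rules and each array left out. The number of arrays limits the precision. Some genes that these rules would name are not reported here.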

Additional observations from a re-analysis of the deposited data

Results flagged for a closer look

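SLC7A2 did not pass the filter and entered no comparison, but its probe read 7.15 on replicate 1 of LP-1-eGFP with bortezomib for 24 h, well above background, while replicate 2 of the same condition read 2.56. The 2 arrays of LP-1-cIAP2-eGFP in that condition read 3.40 and 2.57. The value is a signal on 1 array outside the tested probes, and its source was not tested.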

How the results depend on the processing

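The calls of SAT1, SRM and SMS with bortezomib at 24 h held in both lines under all 26 alternatives run for them, and those of ARG2 in LP-1-eGFP under all 25. No called value changed sign. Scaling to the 75th percentile moved the median of all probes in bortezomib-treated LP-1-cIAP2-eGFP cells by 0.21 at 24 h. With that scaling 1 gene was called at 6 h in LP-1-eGFP, where 2 had been. The normexp background correction left 1 gene called between the lines averaged over conditions. With no filter on signal 0 were called at 6 h in LP-1-eGFP. With probes above background on all 16 arrays, 2 were called between the untreated lines, 1 at 6 h in LP-1-cIAP2-eGFP and 3 at 24 h in LP-1-eGFP, where ASS1 and ARG2 are no longer tested. With the slide as a block, 1 was called between the lines averaged over conditions, 0 with bortezomib and 0 at 6 h in LP-1-eGFP. Array weights, equal within each condition, gave 2 between the untreated lines and 1 at 6 h in LP-1-cIAP2-eGFP, and averaging probes gave 1 at 6 h in LP-1-eGFP. Asking for more than 2-fold left 0 between the lines in each comparison and 1 at 6 h in LP-1-eGFP, and the study's rule and the 2-group comparison of the methods both gave 0 between the lines. The cause of these moves was not tested.

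Leaving out each array in turn gave 2 to 3 genes between the lines averaged over conditions, 1 to 2 untreated, 1 to 3 with bortezomib, 0 to 2 at 6 h in LP-1-eGFP, 0 at 6 h in LP-1-cIAP2-eGFP, 4 to 5 and 3 to 7 at 24 h in the same lines, 0 to 2 for the response difference and 0 for time. Where an array is left out, the lone array of its condition is assumed to vary like the others.

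Replicate numbers did not pair the arrays: over 28 pairs of conditions the correlation of same-numbered deviations ran from -0.11 to 0.24 with a median of 0.04. A replicate block gave the same member counts, 2, 1 and 1 between the lines, 2 and 0 at 6 h, 5 and 4 at 24 h, and 0 for the response difference and time.

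Over all probes, the count of calls moved by more than 1.5 times under some alternatives. With array weights it was 5084 against 2613 between the untreated lines, 1253 against 3156 between the treated lines, 5390 against 659 and 1606 against 366 at 6 h (LP-1-eGFP and LP-1-cIAP2-eGFP), and 2988 against 9631 at 24 h in LP-1-cIAP2-eGFP. With the slide as a block it was 3105 against 5428 between the lines averaged over conditions, 1264 against 3156 between the treated lines, and 267 and 160 at 6 h. With no filter it was 235 and 154 at 6 h, and with probes above background on all arrays 1709 and 998. For 6 h in LP-1-cIAP2-eGFP scaling to the 75th percentile gave 218 and normexp 240. The rule of more than 2-fold gave 1466, 1157 and 1310 between the lines, 379 at 6 h and 4043 at 24 h in LP-1-eGFP and 6263 at 24 h in LP-1-cIAP2-eGFP against 7080 and 9631; the 2-group comparison gave 1194. With all arrays kept, the response difference, 24 in the report, ran from 0 to 80 over the settings and the untreated time comparison from 0 to 21.

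Leaving out 1 array moved these counts further. With the dim array alone in its condition, 9338 were called for the response difference, 12301 between the lines averaged, 12696 treated and 17764 at 24 h in LP-1-cIAP2-eGFP. With either array of that condition left out, 5025 were called between the untreated lines, 2068 and 1355 at 6 h (control first), 10626 at 24 h in the control and 17 for time; without the dim array the response difference was 92. Over all arrays left out in turn the lowest counts were 0 for the response difference and time, 4043, 1439 and 1717 between the lines (averaged, untreated, treated), 70 and 84 at 6 h and 4416 and 6063 at 24 h. These lowest counts came without an array of a condition compared, except that for time several arrays gave 0.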
